A study of Homo sapiens with 54 samples.

Results

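The 9 genes described here carry heme breakdown and iron handling: HMOX1, BLVRB, FECH, FTL, FTH1, NCOA4, TFRC, SLC11A2 and SLC40A1. They were chosen by gene symbol, with earlier results of these libraries known, so no p-value is printed for their responses. Where a member is said to pass or not to pass a threshold on p, that call is given as a description. All 9 were among the 58870 rows of the count table, and all 9 passed the filter on low counts in every fit. Expression was measured by RNA sequencing in 54 libraries of A549, a human lung adenocarcinoma cell line, in 18 groups of 3 replicates. Cells carried an insertless vector (E_V in the labels, EV cells here) or a USP18 expression vector (USP18_O_E, USP18 cells here). USP18 is a protease that removes the ubiquitin-like modifier ISG15 from proteins. Each cell type was given the vehicle DMSO or 1 of 3 coded compounds for 48 h: CP2 at 2 or 5 µM, and CP14 or CP18 at 1, 2.5 or 5 µM. The sources used here name the cells transfectants and do not say whether each vector stands for 1 clone or several, nor, for these libraries, whether replicates were separate cultures, although the methods speak in general of independent biological replicates. P-values and standard errors therefore measure the spread between these libraries, which may be technical, and the vector cannot be told apart from other differences between the transfectant populations.

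Heme oxygenase-1, encoded by HMOX1, opens heme and releases iron, carbon monoxide and biliverdin. Its gene is held down by the heme-sensing repressor BACH1 and turned on by the oxidant-responsive factor NRF2, both of which pair with small MAF proteins. BLVRB is a biliverdin and flavin reductase, and FECH (ferrochelatase) inserts iron into protoporphyrin as the last step of heme synthesis. Iron enters cells on transferrin through the receptor TFRC and leaves the endosome through SLC11A2 (DMT1). It is stored in ferritin, a shell of FTH1 heavy chains, which oxidise iron, and FTL light chains, which help to mineralise it. NCOA4 is the receptor that carries ferritin to the lysosome, and SLC40A1 (ferroportin) is the cellular iron exporter. When iron is scarce, the iron regulatory proteins ACO1 and IREB2 bind hairpins called iron-responsive elements. Binding in the 5′ untranslated region blocks translation of ferritin and ferroportin, and binding in the 3′ untranslated region stabilises the TFRC transcript.

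Those hairpins are shown for the members with a reported search in whose canonical transcript a match was found. Other isoforms were not searched, so a member without a match may still carry such a hairpin. The stem and loop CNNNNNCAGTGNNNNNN was searched on the transcript strand of canonical GENCODE transcripts (hg38), requiring the loop and a paired stem. Capitals mark the loop, and sequences run 5′ to 3′.
FTL, 5′ region, chr19:48965335-48965363, plus strand: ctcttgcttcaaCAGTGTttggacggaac
SLC40A1, 5′ region, chr2:189580661-189580689, minus strand: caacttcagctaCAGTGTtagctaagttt
TFRC, 3′ region, chr3:196050979-196051007, minus strand: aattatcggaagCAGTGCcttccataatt
TFRC, 3′ region, chr3:196050575-196050603, minus strand: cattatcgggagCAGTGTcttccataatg
TFRC, 3′ region, chr3:196050510-196050538, minus strand: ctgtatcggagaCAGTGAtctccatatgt
TFRC, 3′ region, chr3:196050463-196050491, minus strand: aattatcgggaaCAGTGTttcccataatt

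Over 19970 transcripts, 0.0951% held such a hairpin in the 5′ region and 0.611% in the 3′ region, so TFRC, with 4, stood with few others. No match was found in the canonical transcripts of BLVRB, FECH, NCOA4 and SLC11A2. For HMOX1 and FTH1 no result of the search is reported, so whether they hold such a hairpin is not described here. RNA counts give transcript amounts only, so any change in translation through FTL or SLC40A1 hairpins is outside these measurements. In the RefSeq promoter windows (GRCh38.p14, 300 bases around each annotated start), the antioxidant-response core TGACNNNGC, read on both strands, was found in 2 of 11 windows of 7 members (FECH and 1 window of NCOA4) and in 13.3% of all 35116 windows. HMOX1 and FTH1 had no such window, so their promoters were not searched.

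The genes lie on 8 chromosomes of hg38. HMOX1 (ENSG00000100292.17) spans chr22:35380361-35394214 on the plus strand, FTL (ENSG00000087086.15) chr19:48965309-48966879 on the plus strand, and FTH1 (ENSG00000167996.16) chr11:61959718-61967634 on the minus strand. TFRC (ENSG00000072274.13) spans chr3:196012511-196082153, SLC40A1 (ENSG00000138449.10) chr2:189560590-189583758 and BLVRB (ENSG00000090013.10) chr19:40447765-40465764, all on the minus strand. FECH (ENSG00000066926.11) spans chr18:57544377-57586732, NCOA4 (ENSG00000266412.5) chr10:46005088-46030623 and SLC11A2 (ENSG00000110911.15) chr12:50979401-51028566, also on the minus strand.

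Libraries held 16673228 to 25609062 counts (median 19701304), and no member fell below 204 counts in any library. USP18 itself checked the labels: with vehicle it stood at 10.5, 10.7 and 11.1 CPM (counts scaled to a common library total) in EV cells and at 1312, 1301 and 1336 CPM in USP18 cells. The keratins KRT7, KRT8 and KRT18 were high in every library, at 1264 CPM or more, whereas the epithelial marker EPCAM reached only 1.33 to 14.8 CPM. All 6 erythroid markers, among them the hemoglobin genes and ALAS2, stayed below 1 CPM in every library, so the heme genes were read here in cells without a red-cell program. Of 6 leukocyte markers 4 stayed below 1 CPM, and CD3E, a T cell marker, was at 0 in every library. The leukocyte list summed to 36.4 to 38.3 CPM with vehicle in EV cells, 63.5 to 72.9 with 5 µM CP14 in EV cells and 94.97 to 100.5 with 5 µM CP14 in USP18 cells, almost all of it CD68, a lysosomal glycoprotein gene. The 6 epithelial markers, mostly these keratins, summed to 12968 to 13190 CPM with vehicle in EV cells and to 7398 to 7989 CPM with 5 µM CP14 there, and to 8738 to 8977 and 6357 to 6559 CPM in USP18 cells. The fibroblast list, almost all COL1A1, summed to 11.0 to 14.0 CPM with vehicle in EV cells, 4.82 to 4.96 CPM with vehicle in USP18 cells, 6.24 to 6.91 CPM with 5 µM CP14 in EV cells and 4.00 to 4.31 CPM with 5 µM CP14 in USP18 cells, and its other 3 markers stayed below 1 CPM. The part of these lists in the results was not tested.

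Levels between genes were compared per kilobase of the canonical transcript. With vehicle in EV cells, FTL was the highest of the 9 at 8999 CPM per kb, followed by FTH1 at 3581. BLVRB stood at 232.8, HMOX1 at 111.6, TFRC at 91.8 and NCOA4 at 56.5 CPM per kb. The lowest levels were those of SLC11A2 at 13.2, FECH at 10.7 and SLC40A1 at 7.53 CPM per kb. In USP18 cells with vehicle HMOX1, at 37.7, fell below TFRC and NCOA4 in this order. The plot of levels by library shows all 9 genes over the 18 groups.

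**Figure D1:**
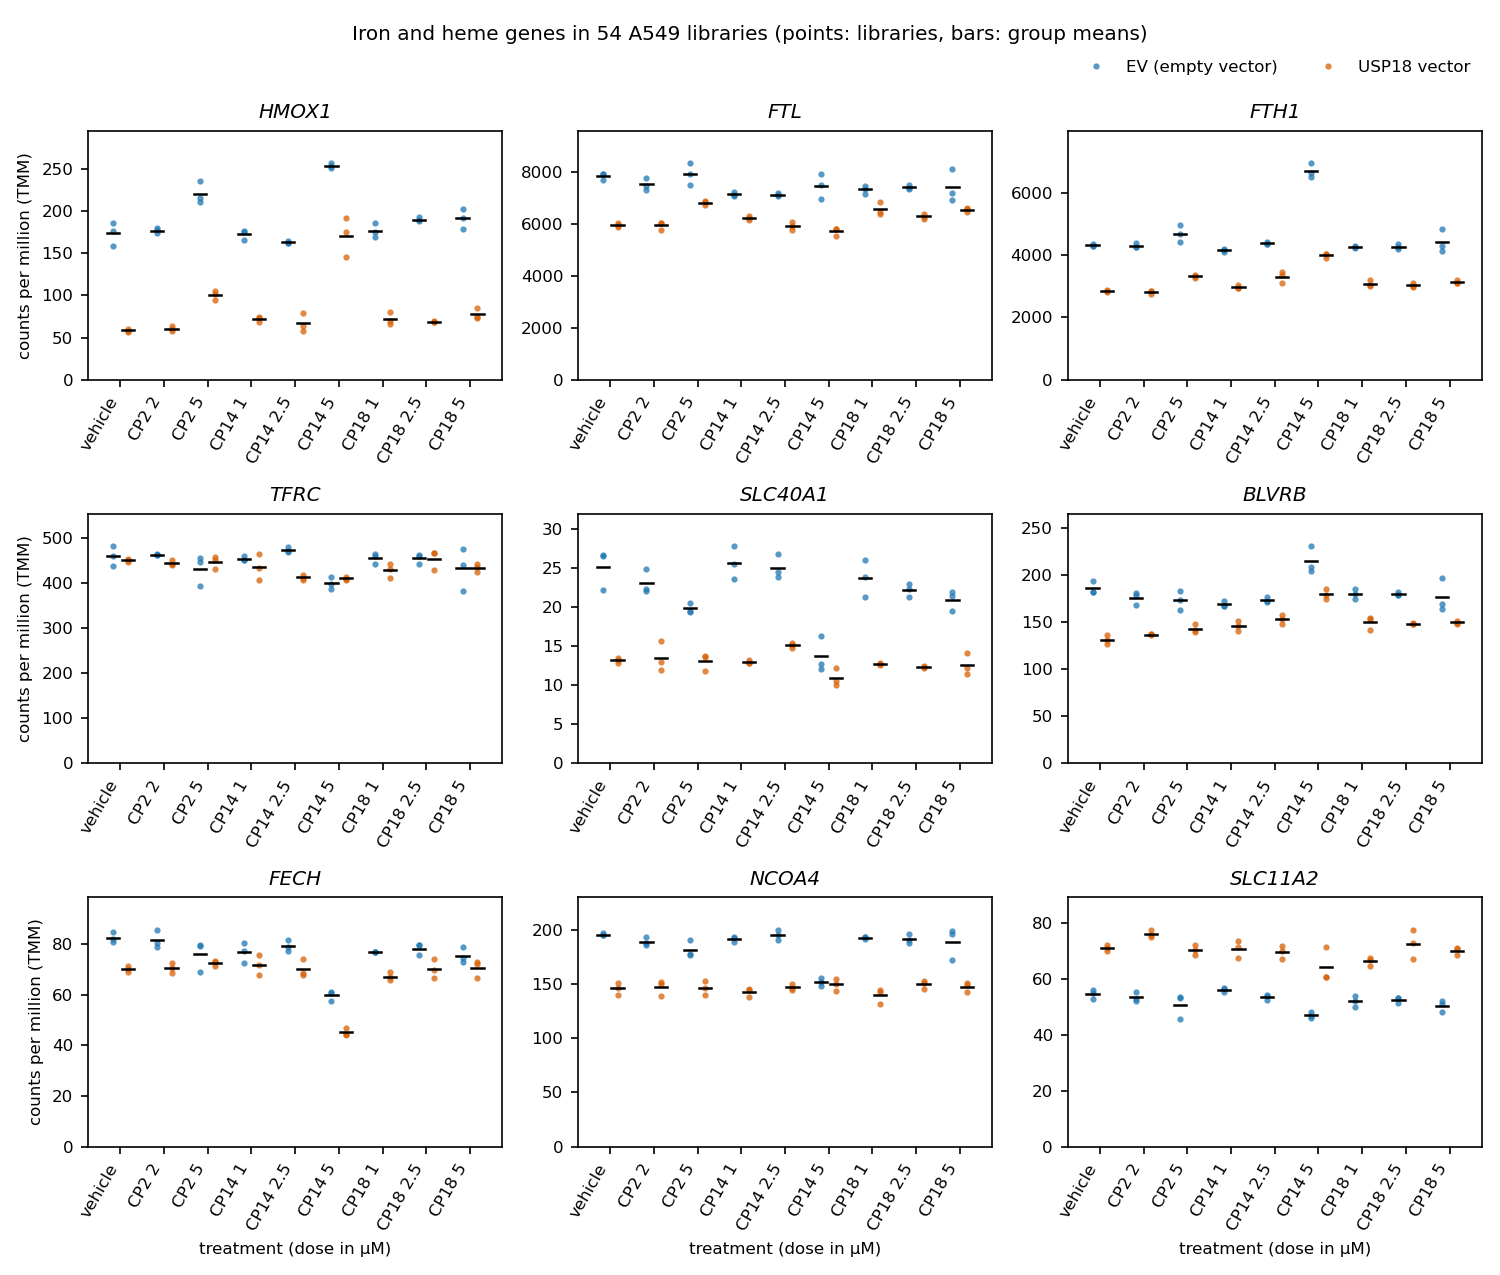
CPM (linear axis from 0) of each of the 9 genes in the 54 libraries, by treatment and dose in µM; points are libraries, black bars are means of 3, blue is EV cells and orange is USP18 cells. HMOX1 ranges from 57.1 to 256.5 CPM and lies higher in EV than in USP18 cells in every treatment, whereas TFRC stays between 382 and 482 CPM throughout.

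The vehicle groups show how USP18 and EV cells differed without a compound. HMOX1 was 2.99-fold lower in USP18 than in EV cells, SLC40A1 was 1.90-fold lower, and both ferritin chains, BLVRB, NCOA4 and FECH were lower too. SLC11A2 alone was higher, and TFRC did not pass the test. In all, 8 of the 9 members passed an adjusted p of 0.05, 1 higher and 7 lower, where 57.6% of the 15252 genes tested passed. HMOX1 alone also exceeded a log2 fold change of 1, where 10.1% of genes did. When 1 library was left out, SLC40A1 ranged from -1.02 to -0.88 and still passed, so it too could exceed that threshold. The median log2 fold change was -0.43 over the members and -0.01 over all genes tested, and as the members were chosen with these values known, nothing is read from either count.

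HMOX1 stood at 177, 158 and 185 CPM in EV cells and at 60.3, 57.1 and 58.3 CPM in USP18 cells. These groups lay far apart, and the log2 fold change was -1.58 ± 0.05 (SE, n = 3 and 3). SLC40A1 stood at 26.5, 26.6 and 22.2 CPM in EV cells and at 12.9, 13.3 and 13.5 CPM in USP18 cells, a log2 fold change of -0.93 ± 0.08. Thus the heme-degrading enzyme and the iron exporter were the members with the largest differences between the vectors.

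For ferritin, FTH1 was at 4285, 4286 and 4352 CPM in EV cells against 2841, 2815 and 2879 CPM in USP18 cells. FTL was at 7923, 7692 and 7898 CPM against 5893, 5945 and 6012 CPM. The log2 fold changes were -0.61 ± 0.02 for FTH1 and -0.41 ± 0.03 for FTL, with no overlap between the groups for either chain.

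BLVRB (-0.51 ± 0.03 on the log2 scale), NCOA4 (-0.43 ± 0.03) and FECH (-0.24 ± 0.04) were lower in all 3 USP18 libraries than in any EV library. SLC11A2, the endosomal iron transporter, was at 52.7, 54.9 and 55.9 CPM in EV cells and 71.0, 69.9 and 72.1 CPM in USP18 cells (log2 fold change 0.37 ± 0.04). TFRC was at 461, 438 and 482 CPM against 449, 452 and 455 CPM, a log2 difference of -0.04 with a 95% interval of -0.10 to 0.02. Its groups overlapped.

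With CP14 at 5 µM, HMOX1, FTH1 and BLVRB rose and FECH, SLC40A1, TFRC and SLC11A2 fell in EV and in USP18 cells, while FTL passed the test in neither. NCOA4 fell in EV cells and did not pass in USP18 cells. In EV cells 8 of 9 members passed an adjusted p of 0.05 (3 higher, 5 lower, where 63.2% of 15947 genes passed). With all libraries none also exceeded a log2 fold change of 1 (13.8% of genes did). When 1 library was left out, SLC40A1 in EV cells ranged from -1.005 to -0.788 and still passed. In USP18 cells 7 passed (3 higher, 4 lower; 68.6% of genes) and 1, HMOX1, exceeded a log2 fold change of 1 (18.0% of genes). Members' median log2 fold changes were -0.21 in EV and -0.05 in USP18 cells, beside 0.01 over all genes in each. As in the vehicle comparison, nothing is read from the counts.

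HMOX1 with 5 µM CP14 stood at 257, 251 and 254 CPM in EV cells, 1.46-fold above vehicle (log2 fold change 0.54 ± 0.06). In USP18 cells it stood at 145, 175 and 192 CPM, 2.93-fold above vehicle (1.55 ± 0.07). All treated libraries lay above all vehicle libraries of their cell type. The treated USP18 libraries overlapped the vehicle EV libraries, at 158 to 185 CPM, and stayed below the treated EV libraries. On the log2 scale the response of USP18 cells exceeded that of EV cells by 1.01 ± 0.10, with a 95% interval of 0.80 to 1.21.

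The transcripts of the ferritin chains parted. FTH1 rose to 6502, 6941 and 6634 CPM in EV cells and 4022, 3893 and 4039 CPM in USP18 cells, with log2 fold changes of 0.63 ± 0.03 and 0.49 ± 0.03. FTL stood at 6947, 7929 and 7490 CPM in EV cells and 5794, 5546 and 5799 CPM in USP18 cells. Its log2 differences from vehicle were -0.07, with a 95% interval of -0.15 to 0.01, and -0.05, with an interval of -0.13 to 0.03. Without CP14 replicate 2, FTL in EV cells passed, at -0.12.

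As both chains are counted in the same library, their ratio does not depend on scaling between libraries. The FTH1 to FTL ratio of CPM was 0.541, 0.557 and 0.551 with vehicle in EV cells and 0.936, 0.875 and 0.886 with 5 µM CP14. In USP18 cells it was 0.482, 0.473 and 0.479 with vehicle and 0.694, 0.702 and 0.697 with 5 µM CP14. No other group had a mean ratio above the 0.616 of EV cells with 2.5 µM CP14. The summed ferritin level went from 12145 ± 146 to 14147 ± 711 CPM (SD, n = 3) in EV cells. In USP18 cells it went from 8795 ± 84 to 9698 ± 224 CPM. A gain of heavy over light chain transcripts was thus the shared pattern, at a higher ratio in EV cells at each treatment. The rows of 25 FTH1 and 16 FTL pseudogenes held at most 0.281% and 0.0984% of the counts of the gene and its copies, and adding them changed no call of the 2 genes at this dose.

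**Figure D2:**
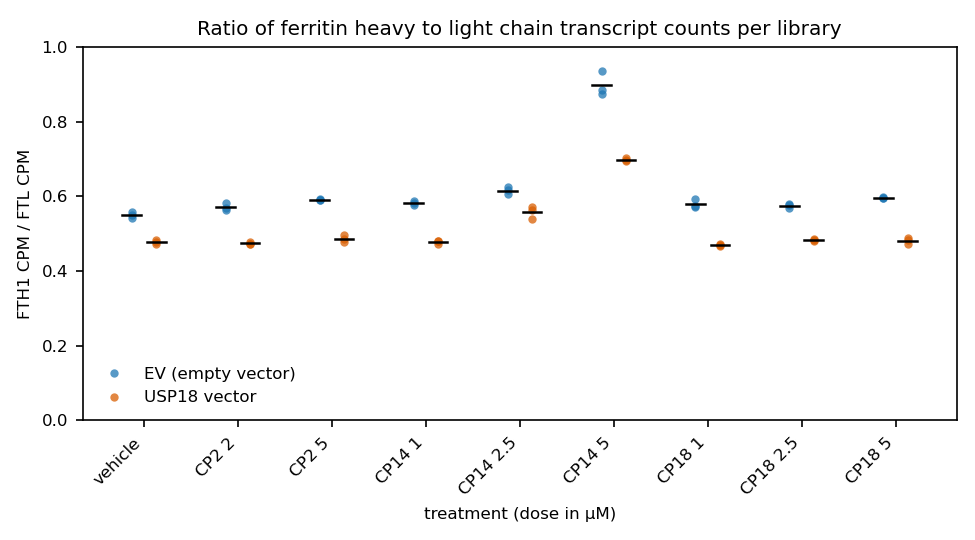
Ratio of FTH1 to FTL CPM in each library, on a linear axis from 0 to 1, by treatment and dose in µM; points are libraries, bars are means of 3, blue is EV and orange is USP18 cells. The ratio is highest with 5 µM CP14, at 0.875 to 0.936 in EV cells and 0.694 to 0.702 in USP18 cells.

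Of the members in EV cells, SLC40A1, the exporter, fell most. With 5 µM CP14 it stood at 12.1, 12.7 and 16.3 CPM in EV cells, 1.83-fold below vehicle (-0.87 ± 0.10 on the log2 scale). In USP18 cells it stood at 9.96, 10.6 and 12.1 CPM (-0.27 ± 0.11). The latter call was lost when any 1 of the 3 vehicle libraries, or CP14 replicate 1 or 2, was left out, with log2 values from -0.27 to -0.19. The response of USP18 cells was less negative by 0.60 ± 0.15.

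Of the genes of heme turnover, BLVRB rose to 205, 231 and 209 CPM in EV cells and 178, 175 and 186 CPM in USP18 cells (0.21 ± 0.04 and 0.46 ± 0.05 on the log2 scale). FECH fell to 61.2, 57.5 and 60.9 CPM in EV cells and 47.0, 44.3 and 44.4 CPM in USP18 cells (-0.47 ± 0.04 and -0.63 ± 0.04). So FECH, at the last step of heme synthesis, moved in the opposite direction to HMOX1 and BLVRB at the transcript level in both cell types. This holds for these members only. The wider lists of heme synthesis and of heme breakdown and transport, given below, each held genes moving both ways, with more lower than higher.

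NCOA4, the ferritin receptor, fell from 195, 195 and 197 to 156, 148 and 151 CPM in EV cells (-0.37 ± 0.04). In USP18 cells, where it started lower, it stood at 147, 140 and 151 CPM with vehicle and 144, 155 and 150 CPM with CP14, a log2 difference of 0.04 with a 95% interval of -0.03 to 0.12. With 5 µM CP14 the level of NCOA4 therefore overlapped between the cell types. The uptake genes fell in both cell types: TFRC by -0.21 ± 0.04 and -0.13 ± 0.04, and SLC11A2 by -0.22 ± 0.06 and -0.13 ± 0.05, in EV and USP18 cells. For SLC11A2 in USP18 cells the treated libraries (71.5, 60.7 and 60.7 CPM) overlapped vehicle. Its call there was lost with DESeq2, with the strictest filter, with only the 2 groups fitted, and without vehicle replicate 1, 2 or 3 or CP14 replicate 2 or 3, at log2 values from -0.13 to -0.07. Without CP14 replicate 1 its log2 value was -0.20.

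The difference in response between the cell types passed an adjusted p of 0.05 for 5 of 9 members (4 higher in USP18 cells, 1 lower; 27.7% of genes passed). These were HMOX1, SLC40A1, NCOA4 (0.41 ± 0.05), BLVRB (0.25 ± 0.06) and, in the negative direction, FTH1 (-0.14 ± 0.04). The FTH1 call was lost in the fit of all 54 libraries, without CP14 USP18 replicate 2 and without vehicle USP18 replicate 3, at log2 values of -0.14 to -0.12. For FECH, FTL, TFRC and SLC11A2 the 95% intervals of the difference were -0.29 to -0.03, -0.09 to 0.14, -0.02 to 0.18 and -0.08 to 0.25. The FECH difference passed without CP14 EV replicate 2, CP14 USP18 replicate 1 or vehicle EV replicate 1. USP18 transcripts themselves were also higher with 5 µM CP14 in USP18 cells, at 1953, 2115 and 2055 CPM, and their part in these differences was not tested.

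**Figure D3:**
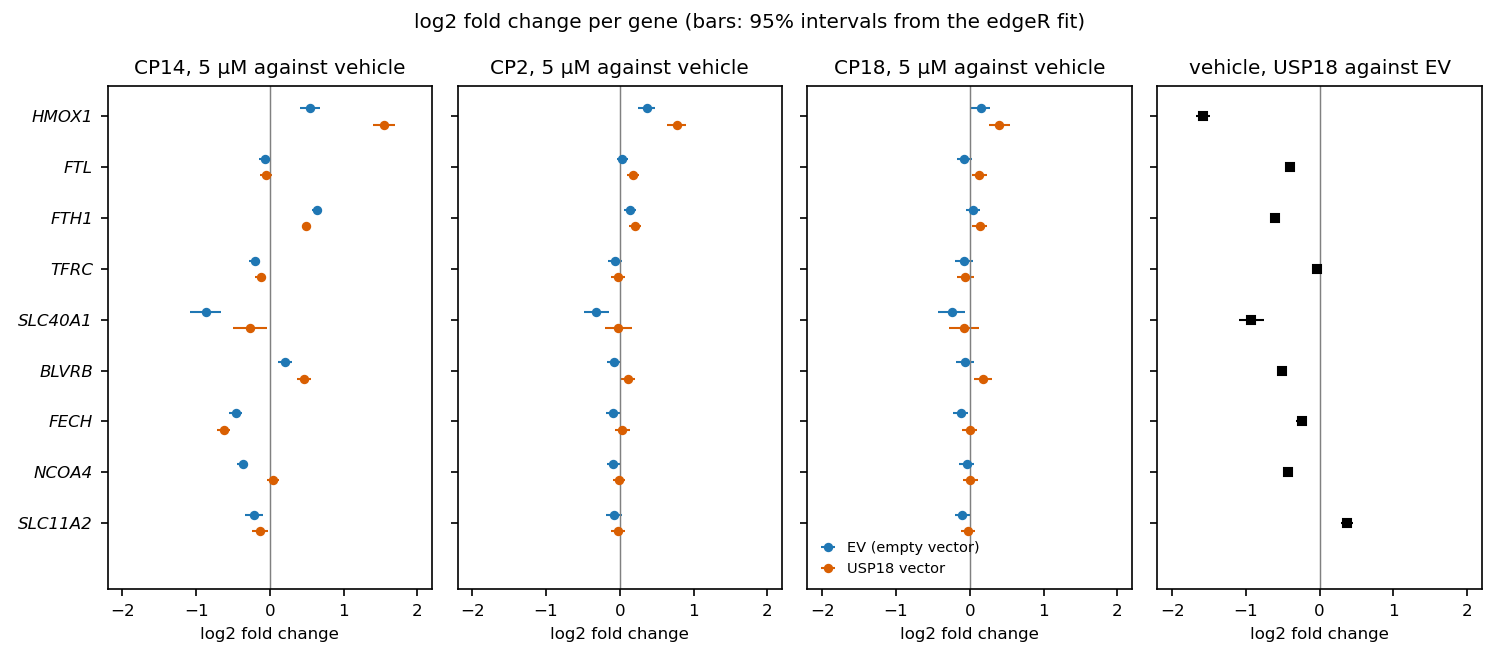
Log2 fold changes of the 9 genes against vehicle with 5 µM CP14, CP2 and CP18 in EV (blue) and USP18 (orange) cells, and of USP18 against EV cells with vehicle (black squares); horizontal bars are 95% intervals of the edgeR fit of 3 against 3 libraries. HMOX1 is the member farthest from 0 in USP18 cells with each compound, at 1.55, 0.77 and 0.40.

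CP2 at 5 µM raised HMOX1 and FTH1 in both cell types. HMOX1 stood at 211, 215 and 235 CPM in EV cells (0.36 ± 0.05 on the log2 scale) and 94.8, 101.8 and 105.5 CPM in USP18 cells (0.77 ± 0.06), with no overlap with vehicle. FTH1 rose by 0.14 ± 0.04 and 0.21 ± 0.04, SLC40A1 fell in EV cells by 0.32 on the log2 scale, and FTL rose in USP18 cells by 0.18 ± 0.04. In EV cells 3 members passed an adjusted p of 0.05 (2 higher, 1 lower; 12.1% of genes passed), and in USP18 cells 3 did, all higher (19.0% of genes). BLVRB, which was lower than vehicle in EV cells, passed there without CP2 replicate 3. NCOA4, also lower there, passed without CP2 replicate 1. In USP18 cells BLVRB was higher, and it passed with no filter and with only the groups compared fitted. The FTH1 call in EV cells was lost with only the 2 groups fitted and without CP2 replicate 2 or vehicle replicate 1 or 2, at log2 values of 0.13 to 0.14, and without CP2 replicate 3 the value was 0.08. The SLC40A1 call was lost without vehicle replicate 1 or 2, at -0.28. By edgeR 1 member, HMOX1, differed in response between the cell types, by 0.40 ± 0.08 (0.920% of genes passed). FTL passed too with DESeq2 and without CP2 EV replicate 3, and BLVRB with no filter and without CP2 EV replicate 3. The HMOX1 call was lost without CP2 replicate 2 or 3 or vehicle replicate 2 or 3 of the USP18 cells, at 0.37 to 0.40. At 2 µM CP2, no member passed by the edgeR test in EV cells (1.84% of genes passed), in USP18 cells (1.13%) or in the difference between them (0.0569%). DESeq2 gave 0 in each. At an unadjusted p under 0.05 the numbers were 2, 1 and 2. The share of all genes at that threshold is not given here, so nothing is read from those numbers. HMOX1 with 2 µM CP2 was at 173, 180 and 177 CPM in EV cells and 63.8, 60.7 and 57.9 CPM in USP18 cells.

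With CP18 at 5 µM, HMOX1 was at 192, 179 and 203 CPM in EV cells, a log2 difference of 0.15 with a 95% interval of 0.02 to 0.28, and at 85.3, 72.8 and 74.4 CPM in USP18 cells (0.40 ± 0.07). It was the 1 member that passed in USP18 cells (10.7% of genes passed), and none passed in EV cells (8.40%) or in the difference between the cell types (0.268%). At an unadjusted p under 0.05 the numbers in EV cells and in the difference were 4 and 3. The share of all genes at that threshold is not given here, so nothing is read from those numbers. DESeq2 gave 0 in EV cells and in the difference. Other alternatives did call members. In EV cells HMOX1, higher than vehicle, passed with no filter. SLC40A1, which was lower, passed in the fit of all 54 libraries and without vehicle replicate 3. FTL and BLVRB, also lower, passed without CP18 replicate 3. For the difference, the members called were FTL in the fit of all 54 libraries, BLVRB with no filter, and FTL, FTH1 and BLVRB without CP18 EV replicate 3. Each of these differences was positive, so the response was higher in USP18 cells. FTH1 (0.14 ± 0.05), FTL (0.13 ± 0.05) and BLVRB (0.18 ± 0.06) in USP18 cells did not pass, although their libraries did not overlap vehicle. All 3 passed with DESeq2, with no filter, with only the groups compared fitted and in the fit of all 54 libraries, and BLVRB passed under 7 of 14 alternatives. At 2.5 µM CP18, HMOX1 was at 193, 189 and 188 CPM in EV cells (0.14 ± 0.04) and at 68.5, 69.3 and 69.1 CPM in USP18 cells (0.23 ± 0.05). In USP18 cells FTL (0.08 ± 0.02), FTH1 (0.09 ± 0.02) and BLVRB (0.17 ± 0.03) passed with it, so that 4 members did (14.2% of genes), and in EV cells 1, HMOX1, did by edgeR (5.96%). In EV cells FTL, which was lower, passed too with DESeq2 and without vehicle replicate 2, and SLC40A1, also lower, without vehicle replicate 3. The difference between the cell types passed by edgeR for FTL (0.197% of genes), a call lost under 12 of 19 alternatives, among them the replicate block and RLE scaling, and with DESeq2 for FTH1 and BLVRB too. In EV cells the HMOX1 call was lost in the fit of all 54 libraries and without any 1 of the CP18 replicates or vehicle replicate 1 or 2, at 0.08 to 0.15.

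Changes at the lower doses of CP14 and CP18 were small. At 1 µM in USP18 cells, HMOX1 stood at 73.0, 74.4 and 68.0 CPM with CP14 and 69.5, 66.2 and 80.6 CPM with CP18, all above the vehicle libraries (0.30 ± 0.05 and 0.30 ± 0.07 on the log2 scale). BLVRB (0.15 ± 0.04 and 0.19 ± 0.04), FTL (0.06 ± 0.02 and 0.14 ± 0.03) and FTH1 (0.06 ± 0.02 and 0.11 ± 0.03) were also higher, making 4 members with CP14 (15.3% of genes passed) and 4 with CP18 (15.7%). Both comparisons rest on the same 3 vehicle libraries, so they are not independent of each other. For CP14 the FTH1 call was lost under 11 of 14 alternatives, including each of the 6 left-out libraries, at 0.05 to 0.07, and the FTL call under 8, at 0.05 to 0.07. The BLVRB call was lost without CP14 replicate 3 or vehicle replicate 1, at 0.11 and 0.12. USP18 transcripts were lower in the same libraries, by 0.33 on the log2 scale with CP14 and 0.41 with CP18, and their part was not tested.

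In EV cells at 1 µM, FTL with CP14 was the 1 member to pass by edgeR, and it was lower (-0.13 ± 0.02; 0.861% of genes passed). Its call was lost in the fit of all 54 libraries, and BLVRB passed too with DESeq2, with only the groups compared fitted and with no filter. None passed with CP18 by edgeR (0.368%), where DESeq2 called 1, FTL. There 2 members had an unadjusted p under 0.05, but the share of all genes at that threshold is not given here. HMOX1 at 1 µM in EV cells was at 176, 165 and 177 CPM with CP14 and 175, 169 and 186 CPM with CP18, both overlapping vehicle. The difference between the cell types passed for HMOX1, FTL, FTH1 and BLVRB with CP14 (5.79% of genes) and for FTL, FTH1 and BLVRB with CP18 (7.19%). For HMOX1 the difference was 0.30 ± 0.07 with CP14, a call lost in the fit of all 54 libraries, and 0.27 ± 0.09 with CP18, which passed under 6 alternatives, among them DESeq2 and the replicate block. The difference between these values was not tested. With 2.5 µM CP14, FTL was again lower in EV cells (-0.14 ± 0.02) and the only member to pass there (15.1% of genes). In USP18 cells FTH1 (0.22 ± 0.03) and BLVRB (0.22 ± 0.04) rose and TFRC fell (-0.12 ± 0.03), 3 members in all (32.7% of genes). HMOX1 did not pass there: its libraries stood at 79.1, 63.9 and 57.7 CPM, 1 within and 2 above the vehicle range of 57.1 to 60.3 CPM (0.20 ± 0.08). It passed under both other filters on low counts, and the log2 value was 0.06 without CP14 replicate 1 and 0.29, then passing, without CP14 replicate 3. The difference between the cell types at 2.5 µM CP14 passed for FTL, FTH1, BLVRB and TFRC (8.00% of genes). For HMOX1 it was 0.29 ± 0.11, which passed with no filter and without CP14 USP18 replicate 3 and ranged from 0.15 to 0.38 when 1 library was left out.

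Compounds were compared at matched doses in 10 contrasts from 1 fit of all 54 libraries, with p-values adjusted over all genes within each contrast and not over the 10. At 5 µM, HMOX1 was higher with CP14 than with CP18 by 0.41 ± 0.07 in EV cells and 1.14 ± 0.08 in USP18 cells, on the log2 scale. It was higher with CP14 than with CP2 by 0.19 ± 0.07 and 0.78 ± 0.07. Between CP18 and CP2 it differed in USP18 cells (-0.36 ± 0.08). In EV cells that difference did not pass, at -0.21 with a 95% interval of -0.36 to -0.07.

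FTH1 was higher with CP14 than with CP18 by 0.60 ± 0.04 and 0.35 ± 0.04, and FECH lower by -0.34 ± 0.05 and -0.63 ± 0.05, in EV and USP18 cells. FTL and SLC11A2 in EV cells, and TFRC, SLC40A1 and NCOA4 in USP18 cells, did not pass between CP14 and CP18, and nothing is read from the counts that follow. Of 9 members, 7 passed in EV cells (58.9% of genes) and 6 in USP18 cells (65.5%) between CP14 and CP18, and 9 (58.7%) and 8 (66.1%) between CP14 and CP2. Between CP18 and CP2, 0 members passed by edgeR in EV cells (0.0653% of genes) and 1 in USP18 cells (0.0832%). In EV cells 3 members had an unadjusted p under 0.05, but the share of all genes at that threshold is not given here. The 95% intervals of the differences of FTH1 between CP18 and CP2 were -0.17 to -0.02 in EV cells and -0.15 to 0.01 in USP18 cells.

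At 2.5 µM, CP14 and CP18 differed in EV cells for no member by edgeR (2.33% of genes passed, and 1 member had an unadjusted p under 0.05), and for HMOX1 the difference was -0.22 with a 95% interval of -0.37 to -0.08. In USP18 cells SLC40A1 (0.29 ± 0.10) and FTH1 (0.13 ± 0.04) were higher and TFRC (-0.13 ± 0.05) lower with CP14, 3 members (26.6% of genes). HMOX1 differed there by -0.03, with an interval of -0.20 to 0.13. At 1 µM no member passed by edgeR in EV (0.0178% of genes) or in USP18 cells (0.0772%), with 1 and 2 members at an unadjusted p under 0.05. For HMOX1 the intervals at 1 µM were -0.18 to 0.11 and -0.16 to 0.16. The share of all genes at an unadjusted p is not given here, so nothing is read from the numbers at that threshold for either dose. CP2 was given at 2 µM and not at 1 or 2.5 µM, so its lower dose was not compared.

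The step from 2.5 to 5 µM CP14 carried most of the change in HMOX1, with 5 µM above 2.5 µM by 0.64 ± 0.07 in EV cells and 1.36 ± 0.08 in USP18 cells. Over the same step SLC40A1 was lower by -0.87 ± 0.09 and -0.46 ± 0.10, and FECH by -0.41 ± 0.05 and -0.62 ± 0.05. In USP18 cells SLC40A1 had stood at 15.1, 14.8 and 15.3 CPM at 2.5 µM, above all vehicle libraries, a difference from vehicle that did not pass (0.20 ± 0.08). For CP18 the same step in HMOX1 was 0.01 ± 0.07 in EV cells and 0.18 ± 0.08 in USP18 cells.

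Over all 18 groups, mean HMOX1 ran from 253.7 CPM (5 µM CP14, EV) to 58.6 CPM (vehicle, USP18). The 2 highest groups, 5 µM CP14 and 5 µM CP2 in EV cells, overlapped neither each other nor the next. The groups at ranks 5 to 10 (means of 177 to 163 CPM) each overlapped their neighbour, and among them stood vehicle EV cells and, at rank 9, USP18 cells with 5 µM CP14. Below a gap came USP18 cells with 5 µM CP2 (100.7 CPM), and then the other 7 USP18 groups (77.5 to 58.6 CPM), in which each neighbour overlapped the next. TFRC means, in contrast, ran only from 474 CPM (2.5 µM CP14, EV) to 400 CPM (5 µM CP14, EV), and below the highest group every neighbour overlapped the next. For SLC40A1 the highest mean was 25.6 CPM (1 µM CP14, EV) and the lowest 10.9 CPM (5 µM CP14, USP18).

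The other genes of iron and heme metabolism were followed in 8 lists of 72 genes, of which 65 were tested in the fit for 5 µM CP14. Not tested were STEAP4, FTMT, PROM2, HEPH, HAMP, HJV and TMPRSS6, none with more than 11 counts in a library, among them hepcidin (HAMP), the liver hormone that closes ferroportin. With 5 µM CP14, 47 genes passed an adjusted p of 0.05 in EV cells (15 higher, 32 lower) and 50 in USP18 cells (21 higher, 29 lower), beside the 63.2% and 68.6% of all genes. Their median log2 fold changes were -0.14 and -0.10, beside 0.01 over all genes in each cell type. Past a log2 fold change of 1 were 5 genes in EV and 8 in USP18 cells, beside 13.8% and 18.0% of all genes.

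Of the 11 genes of iron uptake, 10 were tested, and 8 passed in EV cells (3 higher, 5 lower) and all 10 in USP18 cells (5 higher, 5 lower), beside the same shares of all genes. LCN2, lipocalin-2, which binds iron-carrying siderophores, rose from 2.01, 1.96 and 2.31 to 21.2, 27.1 and 21.9 CPM in EV cells (3.47 ± 0.13 on the log2 scale). The USP18 libraries started lower, and LCN2 there rose from 0.55, 0.39 and 0.48 to 8.35, 9.06 and 9.18 CPM (4.21 ± 0.19). TF, the transferrin gene, was near the limit of detection: it fell from 40, 30 and 37 counts to 11, 0 and 3 in EV cells, and from 7, 9 and 15 to 3, 1 and 1 in USP18 cells. HFE, a partner of the transferrin receptor, fell by 0.87 ± 0.06 and 1.03 ± 0.06 on the log2 scale.

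In the list of iron export and hepcidin control 4 of 8 genes were tested, and 3 passed in each cell type (1 higher and 2 lower in EV cells, 2 higher and 1 lower in USP18 cells), again beside 63.2% and 68.6% of all genes. CP, ceruloplasmin, the copper oxidase that loads exported iron onto transferrin, fell in EV cells from 174, 191 and 156 to 18.8, 15.7 and 18.9 CPM (-3.29 ± 0.08). In USP18 cells CP fell from 140, 129 and 139 to 7.03, 4.75 and 7.24 CPM (-4.41 ± 0.10). The exporter SLC40A1 and this oxidase thus fell in the same libraries. SMAD7, an inhibitor of BMP signalling, was at log2 fold changes of 0.58 ± 0.07 in EV and 1.10 ± 0.07 in USP18 cells, and was singled out after its values were seen, so no test is given.

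Of 16 genes of mitochondrial iron import and iron-sulfur assembly, 10 passed in each cell type (2 higher and 8 lower in EV cells, 3 higher and 7 lower in USP18 cells), beside 63.2% and 68.6% of all genes. SLC25A37, mitoferrin-1, which carries iron into mitochondria, rose from 58.6, 52.5 and 56.6 to 169, 176 and 162 CPM in EV cells (1.59 ± 0.05). The rise in USP18 cells was 1.23 ± 0.05. ISCU, the scaffold on which clusters are built, rose by 0.91 ± 0.04 and 1.14 ± 0.04, and was singled out after its values were seen. The cysteine desulfurase NFS1 (-0.35 ± 0.06 and -0.47 ± 0.06) and the carrier GLRX5 (-0.55 ± 0.06 and -0.74 ± 0.06), named in the same way, fell, so that genes of this list moved in both directions.

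Of 11 heme synthesis genes, FECH apart, 7 passed in EV cells (2 higher, 5 lower) and 9 in USP18 cells (3 higher, 6 lower). For this list and those that follow in the paragraph, the shares over all genes were 63.2% and 68.6%. CPOX, named after its values were seen and acting shortly before FECH, fell by 0.60 ± 0.07 and 0.74 ± 0.07 on the log2 scale. Of 10 genes of heme breakdown and transport, 9 passed in EV cells (1 higher, 8 lower) and 7 in USP18 cells (2 higher, 5 lower). HMOX2, the constitutive heme oxygenase, was at log2 fold changes of -0.21 ± 0.06 in EV cells and 0.25 ± 0.07 in USP18 cells, and was also chosen after its values were seen, so no test is given. Of the 6 genes of iron chaperones and storage 4 were tested, and 2 passed in EV cells (1 higher, 1 lower) and 3 in USP18 cells (1 higher, 2 lower).

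**Figure D4:**
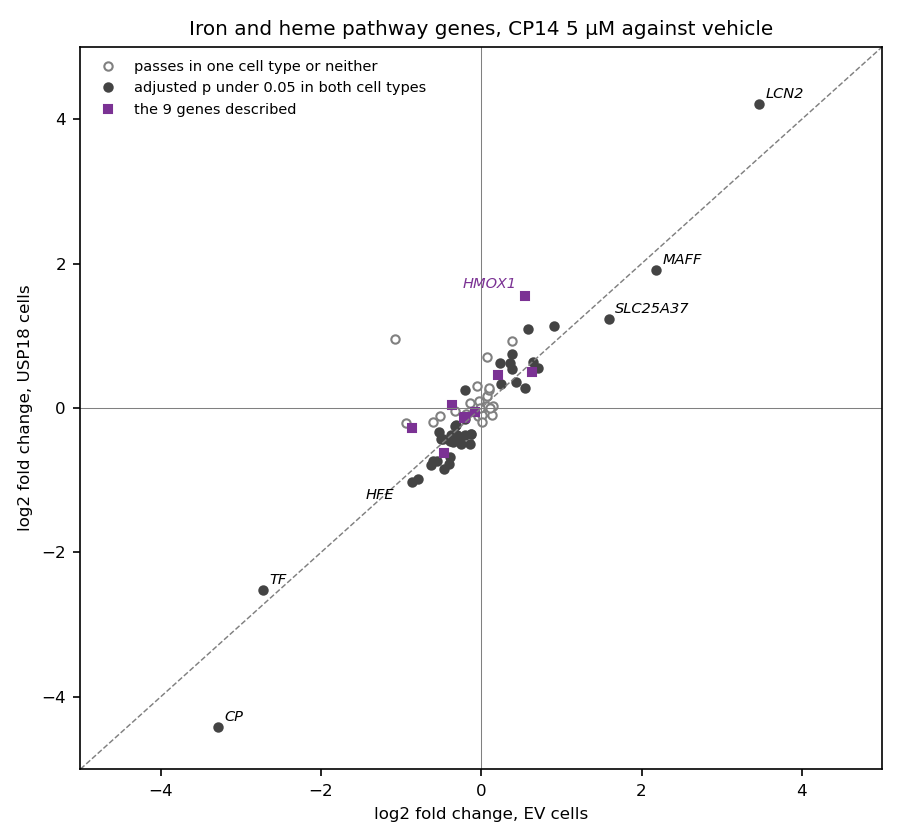
Log2 fold change with 5 µM CP14 against vehicle in EV cells (horizontal axis) and USP18 cells (vertical axis) for the 65 tested genes of the 8 lists (circles, filled where both pass an adjusted p of 0.05) and the 9 genes described (purple squares); the dashed line marks equal change. LCN2, MAFF and SLC25A37 lie at the upper right, CP and TF at the lower left, and HMOX1 lies above the line at 0.54 and 1.55.

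The regulators of these genes were read at the transcript level only. They belong to lists chosen with earlier results of these libraries known. Their adjusted p-values from the edgeR fit, here and below, are therefore descriptions and not fresh tests. BACH1, the repressor of HMOX1, did not pass with 5 µM CP14 in EV cells (0.08 ± 0.06, 95% interval -0.05 to 0.21, adjusted p = 0.30). Its level rose in USP18 cells from 53.4, 51.6 and 52.7 to 90.8, 83.6 and 80.1 CPM (0.70 ± 0.06, adjusted p = 5e-10). NFE2L2, which encodes NRF2, rose by 0.15 ± 0.04 in EV cells (adjusted p = 0.001). In USP18 cells its change of 0.03 ± 0.04 did not pass (adjusted p = 0.50). KEAP1, which marks NRF2 for degradation where its protein is active, fell by 0.39 ± 0.04 and 0.67 ± 0.04 on the log2 scale (adjusted p = 1.4e-08 and 1.4e-12). Whether KEAP1 protein is active in A549 cells was not measured, so its fall is not read as a change in NRF2. The small MAF gene MAFF rose from 4.78, 5.88 and 4.91 to 22.0, 25.2 and 22.8 CPM in EV cells (2.18 ± 0.11). The USP18 libraries went from 17.9, 19.9 and 18.3 to 60.7, 75.3 and 73.2 CPM (1.91 ± 0.08). In this list of 7 genes, 5 passed in each cell type, 4 higher and 1 lower, beside 63.2% and 68.6% of all genes. HMOX1 and BACH1 transcripts were thus both higher in USP18 cells given 5 µM CP14.

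All 3 genes of the iron regulatory proteins passed in both cell types, 1 higher and 2 lower, beside 63.2% and 68.6% of all genes. ACO1 fell by 0.30 ± 0.04 and 0.38 ± 0.04, and IREB2 by 0.25 ± 0.04 and 0.50 ± 0.04, on the log2 scale in EV and USP18 cells (adjusted p = 1.3e-06, 7.2e-08, 2.3e-05 and 9.5e-10). FBXL5, the iron-sensing ligase subunit that removes IREB2 protein, rose by 0.39 ± 0.06 and 0.74 ± 0.06 (adjusted p = 3.1e-06 and 1.1e-10). In these groups TFRC and SLC40A1 transcripts were lower too, FTH1 was higher and FTL did not pass. Binding of the proteins to hairpins was not measured, and a link between these changes was not tested.

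With vehicle, 41 of 64 tested list genes differed between USP18 and EV cells (14 higher, 27 lower), beside 57.6% of all genes, and 5 exceeded a log2 fold change of 1, beside 10.1% of all genes. These 5, chosen by that threshold and not by the naming rule, were MAFF (1.85 ± 0.10), LCN2 (-2.14 ± 0.30), the heme transporter family gene FLVCR2 (-1.83 ± 0.10), TF and HPX. The heme-binding plasma protein gene HPX had 23, 18 and 13 counts in EV cells against 6, 4 and 5 in USP18 cells. BACH1 was higher in USP18 cells (0.43 ± 0.06, adjusted p = 4.9e-06), where HMOX1 was lower.

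With 5 µM CP2, 10 list genes passed in EV cells (3 higher, 7 lower) and 16 in USP18 cells (7 higher, 9 lower), of 65 tested and beside 12.1% and 19.0% of all genes. Of the latter 2, BMP6 and CP, fell beyond a log2 fold change of 1 in USP18 cells. BMP6, the ligand that drives hepcidin in the liver, fell from 22.8, 20.3 and 20.2 to 6.78, 6.58 and 5.73 CPM there (-1.74 ± 0.10) and by 0.90 ± 0.10 in EV cells. CP fell by 0.72 ± 0.06 in EV and 1.03 ± 0.06 in USP18 cells. BACH1 fell with 5 µM CP2, by 0.45 ± 0.07 in EV and 0.19 ± 0.06 in USP18 cells (adjusted p = 0.00017 and 0.035). With 5 µM CP18, 6 list genes passed in EV cells and 8 in USP18 cells, of 64 tested and beside 8.40% and 10.7% of all genes. BMP6 fell with it by 1.03 ± 0.10 and 1.51 ± 0.10 on the log2 scale. With 5 µM CP14 BMP6 changed less, by -0.33 ± 0.09 in EV cells (adjusted p = 0.0035), and it did not pass in USP18 cells.

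To show which genes ran parallel to HMOX1, mean log2 changes from the vehicle of the same cell type were correlated over the 16 treated groups with those of 16841 other genes. The points of a cell type share its vehicle libraries, and r is a description. The highest values were those of SVIL-AS1 (r = 0.947), the kinase gene DAPK3 (0.943), ID3 (0.942), ZNF593 (0.941) and CBARP (0.940). The lowest were SYT13 (-0.967), RBM7 (-0.963) and CEACAM5 (-0.958). Without the 5 µM CP14 groups, r over 14 groups was 0.787 for SVIL-AS1 and 0.847 for DAPK3, and -0.935 for SYT13, -0.860 for RBM7 and -0.880 for CEACAM5. Among the members, r with HMOX1 was 0.771 for BLVRB and 0.757 for FTH1, and -0.689 for FECH. Without the 5 µM CP14 groups it was 0.540, 0.785 and 0.461 for these, so the sign for FECH rested on those 2 groups. FTL went from 0.292 to 0.874 when they were left out. For TFRC the genes most alike were GTF3C4 (0.906), MTPAP (0.894) and NFRKB (0.885).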

How the data were processed

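Per the labels, poly(A) RNA of A549 cells was sequenced with a stranded mRNA kit, whereas the study's methods name rRNA-depleted total RNA. The submitters' processing notes name cutadapt 1.18, STAR 2.7.0f, RSEM 1.3.1 and hg38. The study's methods name another RSEM version and, for counting, a mouse annotation, although the gene IDs are human; which was used is not settled here. The authors deposited RSEM expected counts per gene, not normalized, of which 94.0% are whole; they were rounded here. The 9 members and the 8 lists were chosen with earlier results of these data known, so adjusted p-values printed for list genes are descriptions.

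Genes were filtered with filterByExpr (10 counts) and tested with edgeR 4.0.16 (TMM, quasi-likelihood, Benjamini-Hochberg over all genes tested) in R 4.3.3. Each compound and dose was fitted with the 2 vehicle groups (12 libraries), the vehicle contrast on 6 libraries, and contrasts between compounds or doses on all 54. Standard errors were derived from the F statistic, and intervals are 95%. Thresholds were an adjusted p of 0.05 and, for large changes, a log2 fold change of 1. CPM values were TMM-scaled over all 54 libraries. A prior count of 2 was used for correlations. Counts of 3 or fewer were taken as the floor. Gene positions came from GENCODE v44 (58472 of 58870 IDs matched). List genes named were, for each compound and cell type at 5 µM, up to 3 rises and 3 falls past both thresholds, plus BACH1, NFE2L2, KEAP1, IREB2, ACO1 and FBXL5. No p-value is given for a gene in a comparison whose thresholds named it, as it would restate the choice. Other list genes are said to be chosen afterwards. Alternatives were RLE scaling, 2 other filters, a replicate block, DESeq2 1.42.0, other sets of libraries, summed pseudogenes and leaving out each library. The scripts were tested on simulated data. Total counts of 16673228 to 25609062 per library limit the precision of low genes.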

Additional observations from a re-analysis of the deposited data

Results flagged for a closer look

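The results below were singled out because the response to a compound differed between USP18 and EV cells by the interaction term of the edgeR fit (adjusted p under 0.05). Each value is the log2 response of USP18 cells minus that of EV cells. With 5 µM CP14 it was 1.01 for HMOX1, 0.60 for SLC40A1, 0.41 for NCOA4, 0.25 for BLVRB and -0.14 for FTH1. At the same dose it was -1.13 for CP, 0.74 for LCN2, 0.62 for BACH1, 0.36 for FBXL5, -0.36 for SLC25A37, -0.28 for KEAP1 and -0.25 for IREB2. With 5 µM CP2 it was 0.40 for HMOX1 and -0.84 for BMP6.

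With 2.5 µM CP14 the difference was 0.32 for BLVRB, 0.20 for FTH1, 0.14 for FTL and -0.17 for TFRC. With 1 µM CP14 it was 0.30 for HMOX1, 0.28 for BLVRB, 0.20 for FTL and 0.11 for FTH1. With 1 µM CP18 it was 0.23 for FTL, 0.23 for BLVRB and 0.13 for FTH1, and with 2.5 µM CP18 it was 0.15 for FTL. FTL was lower than vehicle in EV cells and higher in USP18 cells at 1 µM CP14. All of these comparisons share the vehicle libraries of their cell type, so they are not independent.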

How the results depend on the processing

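Over 225 member values, 3492 alternative values were computed: 3464 moved by less than the SD of replicates, 28 moved by more, and no called value changed sign. Requiring 10 counts in every library left 3 in place of 5 pathway list genes past both thresholds with 5 µM CP14 in EV cells, and 2 in place of 5 with vehicle, as fewer genes are then tested. Leaving out a library, HMOX1 with 5 µM CP14 ranged from 0.48 to 0.59 in EV cells, 1.48 to 1.67 in USP18 cells and 0.92 to 1.12 in the difference, and with vehicle from -1.64 to -1.53. With a replicate block, HMOX1 was 0.55 in EV and 1.55 in USP18 cells with 5 µM CP14, and 48 pathway list genes passed in each. The share of all genes passing with the block is not given here, so nothing is read from that number. Samples with the same number did not deviate together (correlations of -0.136 to 0.080), so the numbers were not taken to pair them. Contrasts between compounds were computed in 1 setting only. The interaction of FTL with 2.5 µM CP18 was lost under 12 of 19 alternatives, the replicate block among them, and that of FTH1 with 1 µM CP18 under 11, at 0.14 to 0.16 and 0.10 to 0.13. For 2.5 µM CP14 the difference between cell types was lost for FTL in the fit of all 54 libraries and without CP14 EV replicate 1, CP14 USP18 replicate 2, vehicle EV replicate 1 or vehicle USP18 replicate 1 or 2 (0.12 to 0.13), and for TFRC in that fit and without CP14 EV replicate 3, vehicle EV replicate 2 or vehicle USP18 replicate 2 or 3 (-0.17 to -0.14). For 2.5 µM CP18 in USP18 cells the FTL call was lost in that fit and without CP18 replicate 1 or vehicle replicate 1 or 2 (0.07 to 0.08), the FTH1 call in that fit and without CP18 replicate 1 or vehicle replicate 2 (0.08 to 0.09), and the HMOX1 call in that fit (0.23). For 1 µM CP14 the difference for FTH1 was lost in that fit and without CP14 EV replicate 1 or 2, CP14 USP18 replicate 2 or vehicle USP18 replicate 1 or 2 (0.10 to 0.12), and for 1 µM CP18 the difference for BLVRB without vehicle USP18 replicate 1 (0.20). TFRC with vehicle passed without EV replicate 2, and NCOA4 with 5 µM CP14 in USP18 cells passed without CP14 replicate 1. The cause of these losses and gains was not tested. Low counts limit TF, HPX and LCN2 with vehicle.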
